A study of Mus musculus with 9 samples.

Results

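A set of 10 transcription factor genes, chosen by symbol, was followed through the series: the 4 FOS family genes Fos, Fosb, Fosl1 and Fosl2, the 3 JUN family genes Jun, Junb and Jund, and Egr1, Myc and Klf6. They are 10 of the 54838 genes in the count files, and all 10 passed the filter on low counts in the comparison of hypochlorous acid (HOCl) with no treatment. HOCl is the oxidant that neutrophil myeloperoxidase makes from hydrogen peroxide and chloride. The libraries came from B16F10, a mouse melanoma line of the C57BL/6 strain grown on plates for 4 days, and from CD8+ T cells that a kit isolated from spleens of adult C57BL/6 mice. Untreated B16F10 had 3 libraries, B16F10 with 600 µM HOCl for 5 h had 3, untreated T cells had 2, and T cells with the same HOCl dose and time had 1. Untreated cells stood in medium without HOCl.

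FOS and JUN proteins pair through leucine zippers to form AP-1, which binds DNA at TGACTCA and related sites. FOS proteins bind as partners of JUN proteins, whereas JUN proteins can also pair with each other. Many of these genes are immediate early genes: serum, growth factors or stress raise their transcripts within minutes through kinases, without new protein synthesis, and most of the transcripts then decay fast. EGR1 is a zinc finger factor of the same early wave, MYC drives growth genes together with MAX, and KLF6 is a zinc finger factor that binds GC-rich promoters. A single time of 5 h lies after the early wave as it is known from serum-stimulated cells, and no earlier time was among the libraries.

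Values are counts per M of a library's gene counts (CPM). The B16F10 libraries held 45.9 to 61.3 M counts, the untreated T cell libraries 49.9 and 52.1 M, and the T cell HOCl library 12.8 M. That last library stood apart: 44225 genes had a count in it against 22855 to 25907 elsewhere, and mitochondrial transcripts took 37.4% of its counts against at most 2.11% in any other. Its 8 melanocyte markers summed to 6861 CPM against 103 and 25.9 CPM in untreated T cells, and its 10 T cell markers to 702 CPM against 4766 and 4733 CPM. In B16F10 the melanocyte markers summed to 24584 to 25652 CPM, as the label says. The T cell markers there summed to 6.11 to 8.00 CPM in 5 libraries and to 41.5 CPM in HOCl replicate 3. The 6 B cell markers stood at 16.5 CPM in HOCl replicate 3 against 0.719 to 1.39 CPM in the other B16F10 libraries. No label ties the replicates to separate cultures or mice; the p-values then reflect the scatter among these libraries alone, and that scatter may be technical. The RNA was from bulk samples, in which fewer cells expressing a gene and less RNA per cell cannot be told apart.

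Promoter windows of 4 genes are printed because they belong to the genes with the largest falls, Fos and Fosb, and to the genes in which a searched motif was found, Fos, Jun and Klf6. Each is the 250 bases before the RefSeq transcript start on GRCm38.p6, 5′ to 3′ on the gene's strand, at chr12:85473640-85473889 (+) for Fos, chr7:19310046-19310295 (-) for Fosb, chr4:95052223-95052472 (-) for Jun and chr13:5861239-5861488 (+) for Klf6. Capitals mark TATAAA in Fos, TGACATCA in Jun, and TGACATCA followed by CACGTG in Klf6.
Fos: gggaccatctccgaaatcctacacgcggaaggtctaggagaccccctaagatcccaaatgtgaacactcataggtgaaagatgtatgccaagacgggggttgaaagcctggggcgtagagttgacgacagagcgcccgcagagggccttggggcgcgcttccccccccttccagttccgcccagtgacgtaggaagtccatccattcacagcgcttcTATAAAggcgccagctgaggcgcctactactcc
Fosb: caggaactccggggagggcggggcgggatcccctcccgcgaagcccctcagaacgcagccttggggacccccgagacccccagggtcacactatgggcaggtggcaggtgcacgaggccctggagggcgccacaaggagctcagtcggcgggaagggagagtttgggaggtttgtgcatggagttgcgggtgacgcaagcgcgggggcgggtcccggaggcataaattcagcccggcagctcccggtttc
Jun: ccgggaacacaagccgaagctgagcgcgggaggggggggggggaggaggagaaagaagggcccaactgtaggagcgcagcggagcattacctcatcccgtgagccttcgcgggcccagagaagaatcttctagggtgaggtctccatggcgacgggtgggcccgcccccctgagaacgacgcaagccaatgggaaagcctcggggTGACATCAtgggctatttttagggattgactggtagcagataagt
Klf6: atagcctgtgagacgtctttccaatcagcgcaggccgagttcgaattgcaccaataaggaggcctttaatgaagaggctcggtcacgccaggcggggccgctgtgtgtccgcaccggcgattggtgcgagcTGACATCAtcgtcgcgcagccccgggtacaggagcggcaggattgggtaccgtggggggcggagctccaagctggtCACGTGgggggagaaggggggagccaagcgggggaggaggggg

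TATAAA began 33 bases before the Fos start, and 12.4% of the 32851 RefSeq windows of that length hold it. TGACATCA, a variant AP-1 site known from the human JUN promoter, began 45 bases before the Jun start and 119 before the Klf6 start, and 2.93% of windows hold it. The Klf6 window also had CACGTG, the E-box that MYC and MAX bind, 43 bases before its start, as 6.02% of windows do. The windows of 7 of the 10 genes were searched on both strands. The AP-1 sites TGACTCA and TGAGTCA, held by 4.46% of windows, the cyclic AMP response element TGACGTCA, held by 1.55%, and the CArG box, held by 1.47%, were found in none of the 7. A match is a run of letters and not a measured site, and its absence says only that those letters are not in that window. The matches did not overlap each other. The windows of Fosl2, Junb and Jund are not shown, as none held a searched motif. The Jund window, chr8:70697489-70697738, ends well before the gene start given below, 70698949. The Fosl2 window, chr5:32136222-32136471, lies after the gene start given below, 32135801. For these 2 genes the search covers only the bases before the RefSeq start.

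In B16F10 given HOCl, the FOS family moved in opposite directions: Fos and Fosb fell, Fosl2 rose, and Fosl1 did not pass the test. Myc fell and Klf6 rose, while Jun, Junb, Jund and Egr1 did not pass. Of the 10 genes, 2 rose and 3 fell (quasi-likelihood F test of edgeR, Benjamini-Hochberg adjusted p under 0.05). Over all 16082 genes tested, 28.3% passed, 14.7% upward and 13.5% downward. The median log2 fold change of the 10 was 0.09 against -0.01 for all genes, and their median absolute log2 fold change 0.30 against 0.20. The CPM ranges of the groups did not overlap for 8 of the 10, of which 5 were higher and 3 lower with HOCl. Over all genes tested the ranges did not overlap for 43.6%, with 25.2% higher and 18.4% lower. None of the 5 changes was among the largest: 285 called genes had a larger absolute log2 fold change than Fosb, 431 than Fos, 1035 than Fosl2, 2239 than Myc and 2927 than Klf6, of 4544 called.

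Fos (ENSMUSG00000021250, chromosome 12, 85473890 to 85477273, GRCm38, plus strand) encodes the founding AP-1 partner of JUN. It stood at 13.6, 16.7 and 12.6 CPM in the untreated libraries and at 8.37, 8.77 and 9.06 CPM with HOCl. All HOCl libraries lay below all untreated ones, and the untreated libraries were spread wider. The mean went from 14.3 ± 2.12 to 8.73 ± 0.346 CPM (SD, n = 3 per group), a 1.67-fold fall. The log2 fold change was -0.74 ± 0.11 (SE; edgeR adjusted p = 0.000360, Benjamini-Hochberg). The authors' deposited table has a log2 fold change of -0.66 for Fos and an adjusted p of 1.19e-07. DESeq2, run here as an alternative test, gave -0.74 with an adjusted p of 1.17e-07. Why the deposited change is smaller at a similar p-value was not tested. That table names its groups by number and not by treatment, so its signs are given as deposited.

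Fosb (ENSMUSG00000003545, chromosome 7, 19302696 to 19310051, minus strand) encodes a close relative of FOS with the same early induction. It was a low transcript, at 2.35, 2.83 and 2.44 CPM untreated and 1.225, 1.52 and 1.5 CPM with HOCl. These values rest on 112 to 144 counts per untreated library and 60 to 80 per HOCl library, and the groups did not overlap. The log2 fold change was -0.87 ± 0.19, a 1.82-fold fall, with an edgeR adjusted p of 0.00516 (Benjamini-Hochberg). Fos and Fosb thus fell by amounts that differ by less than their summed standard errors. The authors' deposited table gives Fosb -0.58 with an adjusted p of 0.00308. DESeq2 run here gave -0.87 with an adjusted p of 0.00301, so the deposited change was again the smaller at a similar p-value.

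Fosl2 (ENSMUSG00000029135, chromosome 5, 32135801 to 32157842, plus strand) encodes FRA-2, an AP-1 subunit that lacks the strong activation domain of FOS and in many cells lasts longer after a stimulus. It stood at 21.2, 25.2 and 25.2 CPM untreated and at 31.0, 35.6 and 36.2 CPM with HOCl. The groups did not overlap, and the lowest library of each group was its replicate 1. Fosl2 rose 1.41-fold, from 23.9 ± 2.29 to 34.3 ± 2.83 CPM, with a log2 fold change of 0.50 ± 0.08 and an edgeR adjusted p of 0.00104. The authors' deposited table gives Fosl2 0.47 with an adjusted p of 2.26e-06.

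Fosl1 (ENSMUSG00000024912, chromosome 19, 5447547 to 5455946, plus strand) encodes FRA-1, an AP-1 subunit linked to invasive tumour cells. Its transcript was near the lower end of what was tested, with 21, 25 and 6 counts untreated and 13, 19 and 22 with HOCl, or 0.131 to 0.525 and 0.265 to 0.428 CPM. The ranges overlapped, and the log2 fold change was 0.05 ± 0.48. That error is close to the change of 0.50 called for Fosl2. A change of that size and of either sign could thus go undetected at this depth. Its direction turned without HOCl replicate 3 or untreated replicate 3. Of its 2033 exonic bases, 1163 overlap exons of Ccdc85b on the other strand, which stood at 15.5 and 13.8 CPM in the groups. The strand setting of the counting is not given in the sources used here, so reads of that pair cannot be told apart.

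**Figure D1:**
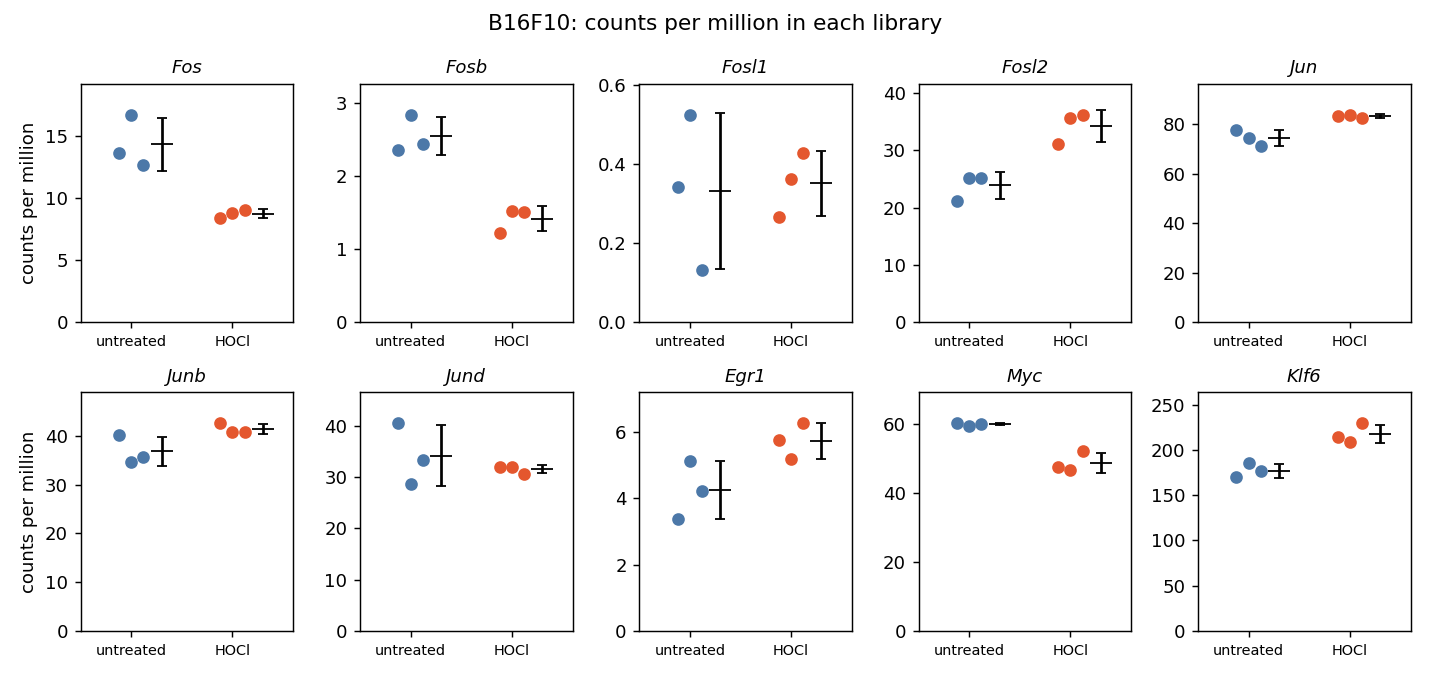
CPM of each of the 10 genes in the 6 B16F10 libraries, 1 panel per gene with its own axis in CPM from 0; points are libraries and lines are group means (n = 3 per group). The HOCl points of Fos, Fosb and Myc lie below all untreated points and those of Fosl2, Jun, Junb, Egr1 and Klf6 above, while Fosl1 and Jund overlap.

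Among the JUN family no gene passed the test, although the ranges of Jun and Junb did not overlap. Jun (ENSMUSG00000052684, chromosome 4, 95049034 to 95052222, minus strand), the archetype of the family and the substrate of the JNK kinases, stood at 77.6, 74.5 and 71.3 CPM untreated and 83.5, 83.8 and 82.4 CPM with HOCl. The HOCl libraries lay close together and above every untreated one. The log2 fold change was 0.13 ± 0.05, with an edgeR adjusted p of 0.0729. Without TMM scaling it was 0.16 with an adjusted p of 0.0338, and without untreated replicate 1 it was 0.17 with an adjusted p of 0.00319. Of the 3189 exonic bases of Jun, 232 overlap the antisense gene Junos, which stood at 0.799 and 1.02 CPM in the groups.

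Junb (ENSMUSG00000052837, chromosome 8, 84974484 to 84978718, minus strand) encodes a subunit that often counters JUN in growth control. Its values were 40.1, 34.7 and 35.6 CPM untreated and 42.6, 40.8 and 40.9 CPM with HOCl. Untreated replicate 1 came near the lowest HOCl library, and the other untreated libraries lay lower. The log2 fold change was 0.14 ± 0.07, with an edgeR adjusted p of 0.137. Without untreated replicate 1 it was 0.21 with an adjusted p of 0.00329. Junb shares 173 of 2301 exonic bases with Prdx2 on the other strand, which encodes a peroxiredoxin and stood at 224 and 200 CPM in the groups with an edgeR adjusted p of 0.124.

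Jund (ENSMUSG00000071076, chromosome 8, 70698949 to 70700616, plus strand) encodes the subunit that resting cells keep. It stood at 40.4, 28.6 and 33.2 CPM untreated and at 32.0, 31.9 and 30.6 CPM with HOCl. The HOCl libraries all lay inside the untreated range, whose spread of 5.94 CPM (SD) was far wider than their 0.795 CPM. The log2 fold change was -0.14 ± 0.10, with an edgeR adjusted p of 0.341, and it was 0.01 without untreated replicate 1. Jund shares 877 of 1668 exonic bases with Gm11175 on the other strand, which had 0 counts in every library. Untreated replicate 1 was the highest of its group for Jun, Junb and Jund. The authors' deposited table gives 0.13, 0.14 and -0.13 for the 3 genes, with adjusted p-values of 0.0743, 0.156 and 0.344.

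Egr1 (ENSMUSG00000038418, chromosome 18, 34859823 to 34864984, plus strand) stood at 3.37, 5.12 and 4.23 CPM untreated and 5.76, 5.17 and 6.25 CPM with HOCl. The groups did not overlap, but untreated replicate 2 lay just below HOCl replicate 2. The log2 fold change was 0.41 ± 0.15 and the edgeR adjusted p was 0.0618, so the gene missed the threshold. It passed with no filter on low counts (0.41, adjusted p = 0.0287) and without untreated replicate 2 (0.57, adjusted p = 0.0198). The authors' deposited table gives Egr1 0.33 with an adjusted p of 0.0703, where DESeq2 run here gave 0.41 with an adjusted p of 0.0676.

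Myc (ENSMUSG00000022346, chromosome 15, 61985391 to 61990374, plus strand) fell. Its untreated libraries stood at 60.2, 59.6 and 60.1 CPM and its HOCl libraries at 47.5, 46.7 and 52.2 CPM. The untreated values were the tightest of any of the 10 genes relative to their mean (SD 0.310 CPM), and HOCl replicate 3 was nearest to them. The 1.25-fold fall was a log2 fold change of -0.33 ± 0.06, with an edgeR adjusted p of 0.00133. The authors' deposited table gives Myc -0.31 with an adjusted p of 2.32e-05.

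Klf6 (ENSMUSG00000000078, chromosome 13, 5861482 to 5870394, plus strand) was the highest of the 10 genes per kb of exon and rose. It stood at 170, 185 and 176 CPM untreated and at 214, 209.02 and 229 CPM with HOCl, with no overlap. The mean went from 177 ± 7.89 to 218 ± 10.5 CPM, a 1.21-fold rise, with a log2 fold change of 0.27 ± 0.05 and an edgeR adjusted p of 0.00226. The authors' deposited table gives Klf6 0.27 with an adjusted p of 2.80e-05.

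Klf6, Fosl2 and Junb were among the genes with more transcript in T cells, and T cell markers were higher in HOCl replicate 3. Those markers stood in that library at 0.873% of their mean level in untreated T cells, and at 0.129 to 0.168% in the other B16F10 libraries. The same 0.873% of the mean T cell level would be 7.23 of the 229 CPM of Klf6 in HOCl replicate 3, 3.40 of the 36.2 CPM of Fosl2 and 1.74 of the 40.9 CPM of Junb. Taken from the higher of the T cell libraries, it would be 9.75, 4.95 and 2.10 CPM for these genes in that order. Without HOCl replicate 3, Klf6 and Fosl2 kept their calls, and Junb had 0.15 with an edgeR adjusted p of 0.217. The 5 calls in B16F10 ended only where the T cell libraries entered the same fit and shared 1 estimate of the spread, as the closing part gives.

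**Figure D2:**
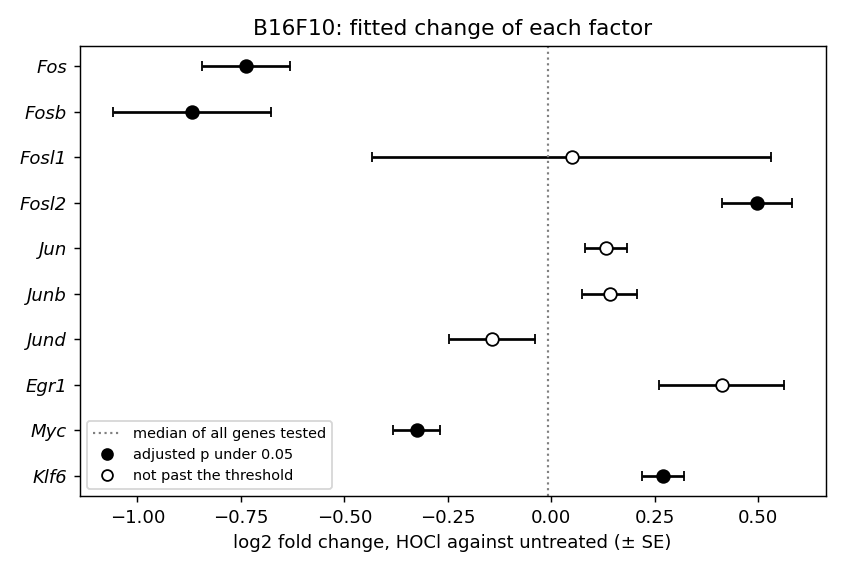
Fitted log2 fold change of each gene in B16F10, HOCl against untreated, with its standard error (bars); filled points have an edgeR adjusted p under 0.05 and the dotted line is the median of all genes tested. Fosb at -0.87 and Fos at -0.74 lie farthest left and Fosl2 at 0.50 farthest right, while Fosl1 has the widest bar.

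The opposite moves of Fos and Fosl2 changed the makeup of the FOS family transcripts. Per kb of exon length, Fos made up 67.8, 68.2 and 63.7% of the summed FOS family level in the untreated libraries and 50.2, 47.6 and 47.9% with HOCl. Fosl2 made up 25.8, 25.0 and 30.9% untreated and 45.2, 46.98 and 46.5% with HOCl. Neither set of shares overlapped between the groups, and Fos went from the clear first place to a share close to that of Fosl2. Fosb went from 4.47 ± 0.145% to 2.96 ± 0.176%, and Fosl1 had 1.74 ± 0.883% and 2.24 ± 0.391%. The family sum was 9.12 CPM per kb (8.43 to 10.4) untreated and 7.65 (7.09 to 8.04) with HOCl. The ratio of Fosl2 to Fos in CPM was 1.56, 1.51 and 1.99 untreated and 3.71, 4.06 and 4.00 with HOCl. These ratios are drawn from the same counts as the tests above and were not tested themselves.

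The shares within the JUN family moved by a few percentage points. Jun made up 39.2 ± 2.61% of the JUN sum per kb untreated and 41.4 ± 0.384% with HOCl, with overlapping ranges. Junb had 26.8 ± 0.339% and 28.6 ± 0.440%, and Jund 34.0 ± 2.94% and 30.0 ± 0.352%. The ranges of these shares did not overlap, although for Jund the lowest untreated share was 30.9% and the highest HOCl share 30.3%. The summed JUN level was 59.8 CPM per kb (55.6 to 66.0) untreated and 63.0 (61.9 to 63.9) with HOCl. JUN transcripts outnumbered FOS transcripts per kb 7.75, 5.34 and 6.84-fold untreated and 9.01, 8.07 and 7.70-fold with HOCl, so the ranges overlapped.

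**Figure D3:**
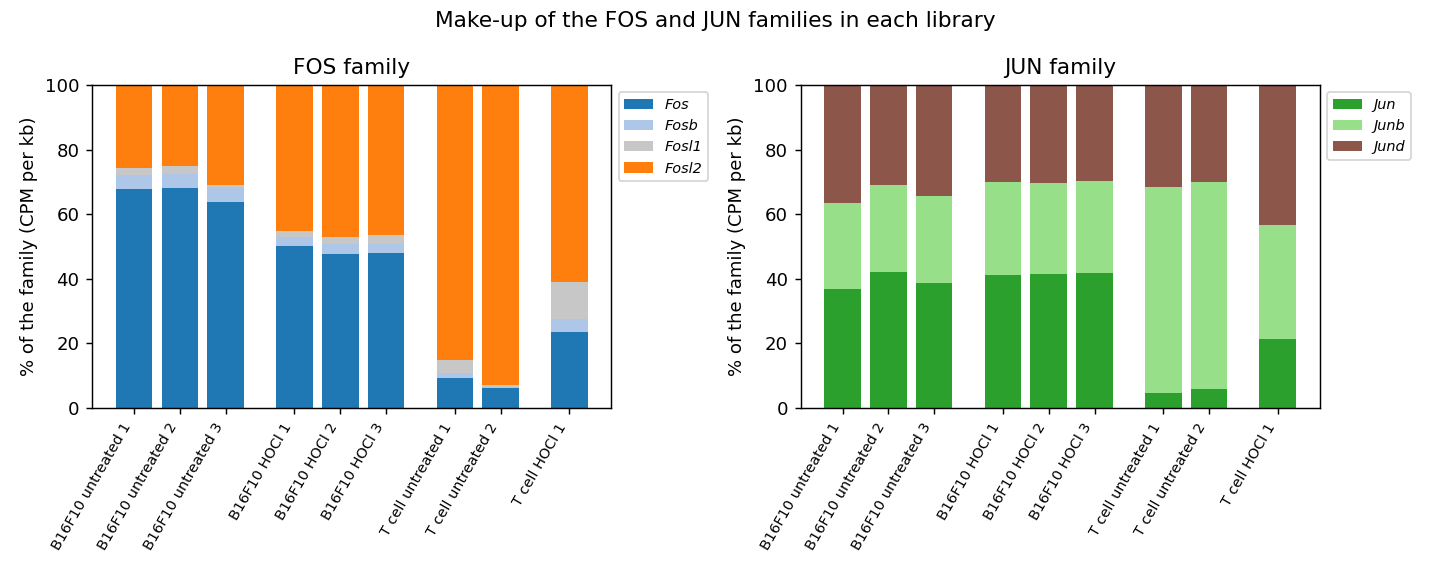
Share of each gene in the summed CPM per kb of its family, in percent, for each of the 9 libraries, with the FOS family and the JUN family in separate panels. In B16F10 the Fos share goes from 63.7 to 68.2% untreated to 47.6 to 50.2% with HOCl. The Fosl2 share goes from 25.0 to 30.9% untreated to 45.2 to 47.0% with HOCl, still below that of Fos in each library. In untreated T cells Fosl2 and Junb make up most of their families.

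Ordered by level per kb in untreated B16F10, the genes ran from Klf6 (40.3 CPM per kb) through Jun (23.3), Myc (22.1), Jund (20.4) and Junb (16) to Fos (6.08), Fosl2 (2.47), Egr1 (0.946), Fosb (0.407) and Fosl1 (0.164). Myc and Jund, and Jund and Junb, had overlapping ranges as neighbours, and the other neighbours did not. With HOCl, Klf6 (49.5) and Jun (26.1) kept the first places, and Jund (18.9), Junb (18) and Myc (17.96) followed, with overlapping ranges between neighbours. Fos (3.71) and Fosl2 (3.54) overlapped, as did Fosb (0.227) and Fosl1 (0.173), and Egr1 (1.28) lay between these pairs. Exon length stands in for transcript length here, and an isoform other than the full exon set would shift these values.

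The other AP-1 and immediate early genes were read from lists that leave out the 10. Of 7 other dimer partners of the AP-1 type, 2 rose and 0 fell, with a median log2 fold change of 0.09. That share of called genes was close to the 28.3% of all genes tested. Atf3, a stress-induced factor that can repress AP-1 sites, rose 2.13-fold, from 15.3 ± 1.24 to 33.4 ± 0.854 CPM, with a log2 fold change of 1.09 ± 0.07 and an edgeR adjusted p of 2.96e-06. Jdp2, a repressor that pairs with JUN, rose 1.14-fold, from 51.0 ± 1.45 to 59.1 ± 1.35 CPM. Its call ended when any 1 library other than untreated replicate 1 was left out, with adjusted p-values of 0.0518 to 0.0834. Batf3, a factor of immune cells, stood at 2.58 ± 0.418 and 1.76 ± 0.314 CPM with a log2 fold change of -0.58 ± 0.20 and an adjusted p of 0.0511. Atf7 had 0.20 ± 0.08, Atf2 0.09 ± 0.06, Batf 0.07 ± 0.09 and Batf2 -0.18 ± 0.41, none past the threshold.

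Of 25 further immediate early genes, 21 could be tested; 7 rose and 1 fell, beside 14.7% of all genes higher and 13.5% lower, with a median log2 fold change of 0.18. Btg2, an antiproliferative gene, rose 1.73-fold, from 6.22 ± 1.23 to 10.99 ± 1.78 CPM. Klf4, a zinc finger relative of Klf6, rose 1.36-fold, from 7.94 ± 1.10 to 11.01 ± 0.277 CPM. The gene that fell was Ccn2, which encodes connective tissue growth factor and answers SRF and YAP, from 9.39 ± 0.644 to 5.73 ± 0.277 CPM, a log2 fold change of -0.74 ± 0.10.

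Of 16 SRF, ternary complex, CREB and MEF2 pathway genes, 7 rose and 2 fell, beside the same 14.7% and 13.5%, with a median of 0.16. Products of the SRF, ternary complex and CREB genes act on the promoters of Fos and Egr1. Elk3, a ternary complex factor that can repress Fos, fell by 0.82 on the log2 scale, from 41.2 ± 0.899 to 23.7 ± 0.546 CPM. Mrtfb, an actin-regulated coactivator of SRF, rose by 0.42 ± 0.08, and Ep300, a histone acetyltransferase gene, by 0.43 ± 0.13. Mef2c, a factor that binds the Jun promoter, fell by 0.22 on the log2 scale. The Ep300 call ended without HOCl replicate 1 or 3, and that of Mef2c ended when TMM was dropped or when any single library except untreated replicate 1 was left out.

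Of 22 kinase genes that feed these factors, 2 rose and 4 fell, a share close to the background, with a median of -0.01. Map2k6, which activates p38, fell from 10.3 ± 0.953 to 4.42 ± 0.223 CPM, a log2 fold change of -1.25 ± 0.11. Map2k2, which encodes MEK2, fell by 0.27 on the log2 scale, a call that ended without HOCl replicate 3. Map3k5, which encodes the oxidant-sensitive kinase ASK1, rose 1.28-fold, and Mapk7, which encodes ERK5, 1.14-fold. The Mapk7 call ended without HOCl replicate 1 or 3.

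Of 20 genes linked to AP-1 as targets, 14 could be tested, of which 1 rose and 3 fell, with a median of -0.05. The share called was close to the 28.3% of all genes tested. Vegfa, an angiogenic factor gene, rose 1.32-fold, from 43.1 ± 1.98 to 57.9 ± 2.21 CPM. Ccnd1, cyclin D1, fell from 211 ± 25.3 to 147 ± 6.08 CPM, a log2 fold change of -0.54 ± 0.08. Timp1, a metalloproteinase inhibitor gene, fell by 0.34 on the log2 scale, and its call ended without HOCl replicate 3.

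Of 20 genes linked to MYC as targets, 13 fell and 0 rose, beside 13.5% of all genes lower and 14.7% higher. Their median log2 fold change was -0.19, beside -0.01 for all genes. Shmt1, a serine and one-carbon enzyme gene, went from 42.1 ± 0.369 to 29.9 ± 0.617 CPM, a log2 fold change of -0.52 ± 0.06. Srm, which encodes spermidine synthase, went from 155 ± 7.07 to 112 ± 1.69 CPM, or -0.50 ± 0.05. The call ended under at least 1 alternative within B16F10 for 5 of the 13. Of 14 MYC partner genes, 11 could be tested, 5 rose and 2 fell, with a median of 0.04. Mxi1 and Mga, whose products compete with MYC for MAX or its sites, rose 1.35 and 1.35-fold, Mxd3 fell by 0.42 and Mycbp by 0.35 on the log2 scale, and Mycbp lost its call without HOCl replicate 1 or 2. Max stood at 98.2 and 94.8 CPM and did not pass.

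Of the genes linked to EGR factors, 3 of 5 could be tested and 0 passed by edgeR (0 at an unadjusted p under 0.05, and 0 by DESeq2). Nab1 and Nab2, corepressors of EGR1, had log2 fold changes of -0.06 ± 0.05 and -0.10 ± 0.07, and Egr3 stood at 0.296 and 0.327 CPM. Of 13 other KLF genes, 2 rose and 1 fell, with a median of 0.10. Beside Klf4, Klf9 rose 1.30-fold to 20.04 ± 1.91 CPM, and Klf16 fell by 0.21 on the log2 scale, a call that ended without HOCl replicate 1 or 2 or untreated replicate 3. Of 9 genes for the decay of AU-rich transcripts such as Fos, 0 passed by edgeR, 1 was higher at an unadjusted p under 0.05 and 1 passed by DESeq2 (median 0.04). Of 9 genes for the turnover of these proteins, 3 rose and 1 fell, with a median of 0.09. Det1, part of a ubiquitin ligase for JUN, rose 1.45-fold, and Usp36, a nucleolar deubiquitinase, 1.29-fold. Over these lists together, 28 of 141 tested genes rose and 27 fell, 39.0% in all beside 28.3% of all genes tested, with a median of 0.03 beside -0.01. Of the 27 that fell, 13 were MYC targets. The lists were chosen with earlier results of these data known, and the difference from all genes is therefore not independent of them.

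**Figure D4:**
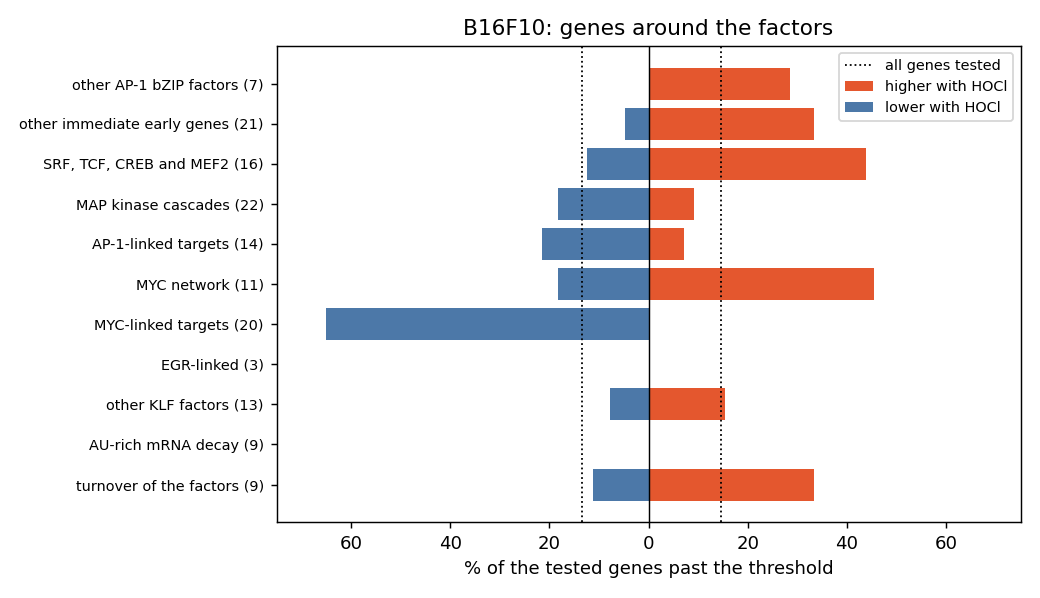
Percent of tested genes in each list that were higher or lower with HOCl in B16F10 (edgeR adjusted p under 0.05), with dotted lines at the share of all genes tested. The MYC targets stand at 13 of 20 lower with none higher, and the EGR-linked and decay lists at 0.

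The genes whose log2 CPM over the 6 B16F10 libraries was most like that of Fosb, among 11128 compared, were Lacc1, Nacc2 and Bub1, each with a Pearson r of 0.996. For Fos they were Zfp423 (0.996), Hirip3 (0.995) and Pnpt1 (0.994). All 6 were lower with HOCl, with log2 fold changes of -0.42, -0.42, -0.20, -0.33, -0.28 and -0.28 in that order. With 6 libraries in 2 groups, r mostly reflects the gap between the groups.

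Between the untreated cell types, T cells had far more Fosl2, Junb and Klf6, and B16F10 more Jun and Myc. This comparison shares the untreated B16F10 libraries with the one above, and cell type, culture and preparation cannot be told apart in it. Of the 10 genes, 2 were higher and 5 lower in B16F10 by edgeR, where 71.1% of 18352 genes passed, 35.8% higher and 35.4% lower. The CPM ranges did not overlap for 9 of the 10, 4 higher and 5 lower in B16F10, against 81.8% of all genes, 46.0% higher and 35.8% lower. The 2 T cell libraries differed from each other, with replicate 2 at 2.69 times the Fosl2 and 2.07 times the Klf6 of replicate 1, and their B cell markers summed to 1298 and 2409 CPM.

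Fosl2 stood at 211 and 567 CPM in the T cell libraries against 23.9 ± 2.29 CPM in B16F10, 19.8-fold higher by the fit (log2 -4.30 ± 0.46, edgeR adjusted p = 0.000432). Junb stood at 159 and 240.0 CPM against 36.8 ± 2.93 CPM, 6.5-fold higher in T cells (adjusted p = 0.000207). Klf6 stood at 539 and 1116 CPM against 177 ± 7.89 CPM, 5.64-fold higher (adjusted p = 0.00124). Without T cell replicate 2 the log2 fold changes were -3.28 for Fosl2 and -1.74 for Klf6, and without replicate 1 that of Fosl2 was -4.86, all still past the threshold in fits that take the lone T cell library to vary like the B16F10 libraries. In each case both T cell libraries lay above every B16F10 library. Jund was 2.44-fold higher in T cells, at 56.9 and 82.1 CPM. Fosl1 stood at 2.06 and 0.576 CPM, 4.56-fold higher in T cells by the fit, a call that ended under 5 alternatives, among them leaving out T cell replicate 1 (log2 -1.07 in place of -2.19). Jun stood at 15.7 and 30.2 CPM, 2.69-fold lower than in B16F10 (adjusted p = 0.00920), and Myc at 28.7 and 22.8 CPM, 1.97-fold lower (adjusted p = 0.00166). Without T cell replicate 2 the log2 fold change of Jun was 2.11 in place of 1.43. The Jun call ended without untreated B16F10 replicate 1, with an adjusted p of 0.0600. Fos at 5.57 and 9.10 CPM, Fosb at 2.24 and 1.65 CPM and Egr1 at 4.47 and 3.94 CPM did not pass, with log2 fold changes of 0.70 ± 0.31, 0.14 ± 0.31 and -0.23 ± 0.29. Fos passed under 5 alternatives, and the sign of Fosb turned with a stricter filter and that of Egr1 without TMM.

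In T cells the order per kb was Klf6 (188.5 CPM per kb), Junb (86.7), Jund (41.7), Fosl2 (40.2), Myc (9.47), Jun (7.20), Fos (3.12), Egr1 (0.937), Fosl1 (0.649) and Fosb (0.312). Jund and Fosl2, Myc and Jun, Egr1 and Fosl1, and Fosl1 and Fosb overlapped as neighbours. Fosl2 made up 85.3 and 93.0% of the FOS family level and Junb 63.9 and 64.0% of the JUN family level, where Jun had 4.55 and 5.81%. The leading subunits per kb were thus Fosl2 and Junb in T cells, and Fos and Jun in untreated B16F10. In untreated B16F10 replicate 1, Jun led Jund only narrowly, at 36.9 and 36.7% of the JUN family level.

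**Figure D5:**
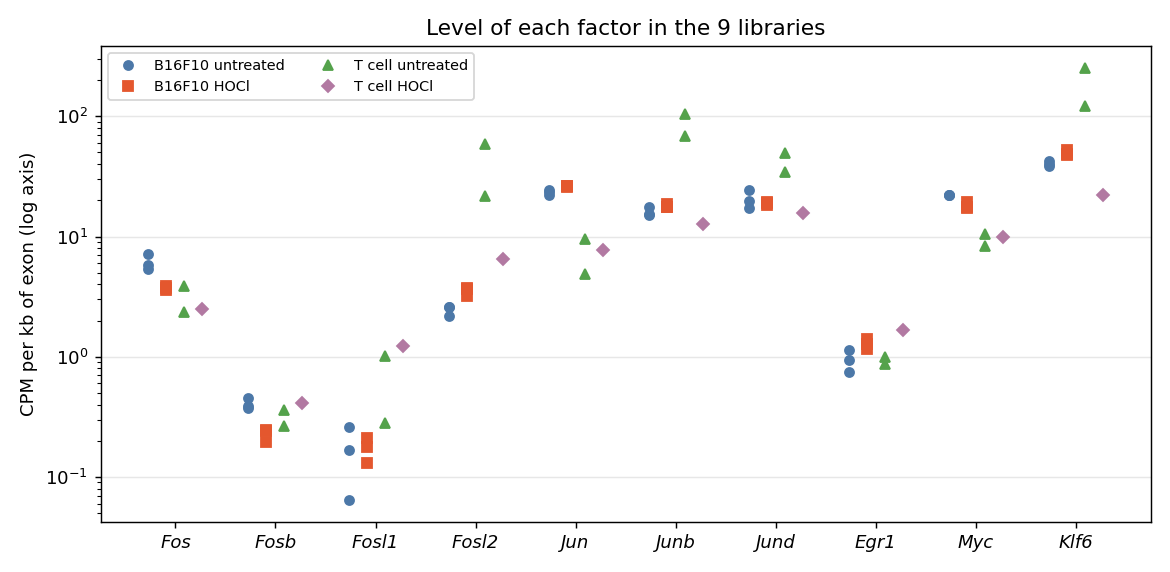
Level of each gene in CPM per kb of exon length on a log axis, by group; points are libraries (3, 3, 2 and 1). Klf6, Junb and Fosl2 lie highest in untreated T cells, and Jun and Myc in B16F10.

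The library labelled T cell HOCl gives 1 value per gene and no test. Fosl2 was at 62.3 CPM (exact 95% Poisson interval 58.1 to 66.8, counting error only), Klf6 at 96.6 CPM (91.3 to 102), Junb at 29.0 CPM (26.2 to 32.1) and Jund at 26.1 CPM (23.4 to 29.0). These 4 lay below both untreated T cell libraries. Fosb at 2.57 CPM (1.77 to 3.61), Fosl1 at 2.49 CPM (1.70 to 3.52) and Egr1 at 7.47 CPM (6.05 to 9.12) lay above both, although the intervals of Fosb and Fosl1 reached the higher untreated value. Listed genes at 0 CPM in both untreated T cell libraries stood at 1.71 (Ccn2) to 12.8 CPM (Plau) in this library, with Egr4 at 2.57 CPM. Whether values this low come from T cell transcripts was not tested. Per kb, Fosl2 made up 61.0% and Fos 23.5% of its FOS family level, and Jund 43.5% and Junb 35.1% of its JUN family level. Fos at 5.84 CPM, Jun at 24.5 CPM and Myc at 26.8 CPM lay between the untreated libraries. CPM is taken over all counts of a library, and mitochondrial transcripts took 37.4% here against 1.55 and 2.11% in untreated T cells. A larger mitochondrial share lowers the CPM of every other gene, and the positions were not computed without those transcripts. The T cell markers of that library were at 702 CPM against 4766 and 4733 CPM in untreated T cells and its melanocyte markers were higher, as given above; their part in these values was not tested.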

How the data were processed

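RNA was sequenced from the 9 libraries described above. The authors deposited raw counts of reads per gene, not normalised. They also deposited a table of their own test per cell type; the log2 fold changes and adjusted p-values deposited for B16F10 are quoted where that table is named. STAR 2.7.1a, featureCounts 1.6.0, FastQC 0.11.8, DESeq2 1.22.2 and build mm10 are named in the submitters' processing notes. The strand setting, annotation release and handling of multiply mapped reads were not given in the sources used here. Groups came from the titles. Of 54838 genes, 54809 were found by ID in GENCODE M21 (GRCm38), which gave coordinates and exon lengths; all 207 listed symbols matched, 5 by a synonym.

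Genes were kept by filterByExpr and tested with edgeR 4.0.16 (R 4.3.3): TMM scaling, robust quasi-likelihood F test and Benjamini-Hochberg adjustment over all genes tested, threshold 0.05. SE is the log2 fold change over the square root of F. CPM uses library totals without TMM. No 2 replicates agreed within counting noise (chi-square per degree of freedom 3.73 to 23.2 in B16F10, 393 in T cells). In a library, a gene at 0 could stand at up to 3 counts, which is 0.0489 to 0.234 CPM; such limits cover counting error only. The alternatives tried were library totals alone, DESeq2's size factors, every gene kept, a stricter filter (1 CPM and 50 mean counts), a joint fit of all 9 libraries, DESeq2 1.42.0, a replicate block and each library left out; an 8-library fit was added after seeing the data. The fits were tested on simulated counts. The genes and lists were chosen with earlier results of these data known. All 10 genes were named; each list named up to 2 genes per direction, by size of change, with at least 50 mean counts, and all tested AP-1 partners and EGR-linked genes; the likeness measure took the 2 genes with the largest changes and 3 genes each. Max was named after its values were seen. The result of 1 listed gene is not reported here. Promoter windows are RefSeq's on GRCm38.p6. T cell HOCl, with 1 library, was not tested.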

Additional observations from a re-analysis of the deposited data

Results flagged for a closer look

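In 4 of the 10 genes the T cell HOCl library stood on the opposite side of its untreated group from the B16F10 HOCl libraries. The same held for 23.0% of the 16082 genes tested in B16F10. Fosl2, Junb and Klf6 lay above all untreated libraries in B16F10 and, at 62.3, 29.0 and 96.6 CPM, below both untreated libraries in T cells. Fosb lay below all untreated libraries in B16F10 and, at 2.57 CPM, above both in T cells. The difference between the cell types was not tested for these genes, and the T cell arm is the single library that stood apart in depth, mitochondrial share and markers. Egr4, at 0 CPM in both untreated T cell libraries, also stood at 2.57 CPM in that library.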

How the results depend on the processing

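The 5 calls in B16F10 (Fos, Fosb and Myc down, Fosl2 and Klf6 up) kept their direction under every alternative run and their side of the threshold except where T cell libraries shared the fit. With all 9 libraries in 1 fit, 11 genes rose and 26 fell, 0 and 0 of the 10, with adjusted p-values of 0.376 for Fos, 0.482 for Fosb, 0.798 for Fosl2, 0.497 for Myc and 0.829 for Klf6. With 8 libraries in 1 fit, 29 genes rose and 38 fell, 0 and 0 of the 10. The cause was not tested. Leaving out 1 library at a time gave 1605 to 2819 genes up and 1410 to 2634 down, 2 to 4 of the 10 up and 3 down, and 19 to 36 genes of the lists up and 17 to 35 down. Genes called down numbered 1432 without HOCl replicate 2 and 1410 without HOCl replicate 3, and genes of the lists called down 17 without HOCl replicate 1. Among the 10, 4 rose without untreated replicate 1, where Jun and Junb passed. Directions reversed for Fosl1 (-0.11 without HOCl replicate 3, -0.31 without untreated replicate 3; range -0.31 to 0.51) and Jund (0.0066 without untreated replicate 1; range -0.25 to 0.0066). Without TMM the median of all genes was 0.02 in place of -0.01, and the lists had 35 up and 22 down.

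Deviations of same-numbered B16F10 samples from their group means were nearly uncorrelated (0.04, 0.00 and 0.00). With 3 libraries per group and no label on pairing, this cannot settle whether the samples were paired. With the replicate block 2726 genes rose and 2567 fell, with 3 of the 10 up and 3 down, Egr1 being added at 0.42 (adjusted p = 0.0293). Between cell types the block gave 5320 higher and 4763 lower, with 2 and 4 of the 10. Leaving out 1 library there gave 5344 to 7837 genes higher and 5588 to 7589 lower, and 1 to 3 of the 10 higher and 4 to 5 lower. Fosb reversed to -0.039 with the stricter filter and Egr1 to 0.013 without TMM, which moved the median of all genes from -0.02 to 0.22. Fos passed there without TMM (0.96, adjusted p = 0.0264), and Fosl1 lost its call under 5 alternatives. Depth limits Fosl1 most, with 6 to 25 counts per B16F10 library.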
